A study of Mus musculus with 23 samples.

Results

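Mouse chromosome 6 carried 207 of the 3885 regions at which liver DNA methylation was listed as different between sexes or genotypes in mice with and without hepatocyte STAT5, or 5.33% of the authors' deposited table. All regions that the table places on chromosome 6 were taken, and the chromosome was read in 2 parts: a distal segment from 120 Mb (mm9) to the last listed region, with 88 regions, and the rest of the chromosome, with 119 regions. The chromosome and the boundary were chosen by the listed differences in all 4 comparisons, so the values below describe these regions and carry no test. On either side of the boundary, the first region inside (120140901 to 120141001) had 17.9 points for KO against control males, and the last region outside (119868901 to 119869001) had -15.8 points for KO against control males and -17.4 points for KO against control females, in the authors' deposited table. The libraries were made from liver genomic DNA of individual mice aged 8 to 12 weeks: 6 males and 6 females with an albumin promoter-driven Cre and a floxed Stat5a-Stat5b locus, which removes STAT5a and STAT5b from hepatocytes (KO), and 6 males and 5 females with the floxed locus as controls. Per the labels' protocols the floxed mice came from a C57BL/6 x 129J cross and the Cre transgene from the FVB/N strain. Liver cells outside the hepatocyte lineage, such as endothelial and immune cells, do not use the albumin promoter and keep both factors. In DNA of whole liver, a methylation change within hepatocytes and a change in the share of other cells cannot be told apart.

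STAT5a and STAT5b are activated at the growth hormone receptor, enter the hepatocyte nucleus and bind DNA as transcription factors. The growth hormone pulses of the pituitary differ between male and female rodents, and much of the sex difference in liver gene expression depends on STAT5b. Methylation of cytosine at CpG sites is copied when DNA replicates, and at regulatory elements low methylation usually goes with factor binding and activity. The distal end of mouse chromosome 6 is known for gene families of liver and immune cells, among them A2m, which encodes the plasma protease inhibitor alpha-2-macroglobulin, the Klr genes for lectin-like receptors of natural killer cells, and the Slco1 genes for organic anion transporters of the hepatocyte, of which Slco1a1 is expressed more in male than in female mouse liver. In the RefSeq order of the later GRCm38.p6 assembly, A2m, Klrb1, Klrk1, Slco1b2 and Slco1a1 follow each other towards the end of chromosome 6. None of the regions below was assigned to a gene, because their positions are in mm9 and no annotation of that build was used here.

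The measurement was reduced representation bisulfite sequencing (RRBS), in which MspI fragments are treated with bisulfite, which turns unmethylated cytosine into a base sequenced as thymine. Each value is a difference in percent methylation between groups over a 100-bp region, in percentage points, as the authors computed it, and a positive value means higher methylation in the first-named group. A region was listed for a comparison where the difference exceeded 15 points with a q-value below 0.05, and a 0 stands for a region not listed. The table holds neither group levels nor per-animal values nor read coverage, so read depth is unknown and no spread between animals can be given. The 4 comparisons share groups: each KO comparison uses the control mice of its sex, and the sex comparisons use the same mice again. The sample titles carry 5 codes of unstated meaning, 3 of them found in more than 1 group. No code was found in both KO and control mice of the same sex, so genotype and code cannot be told apart in the KO comparisons.

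On chromosome 6, more regions gained than lost methylation in KO males, and, unlike in the table as a whole, more regions lost than gained it in KO females. KO males differed from control males at 102 regions of chromosome 6 (49.3% of its regions, against 55.4% over the whole table), with 75 higher and 27 lower in KO males, so that 73.5% were higher, against 68.1% over the table. KO females differed from control females at 74 regions (35.7%, against 28.1% over the table), with 32 higher and 42 lower in KO females, so that 43.2% were higher, against 60.9% over the table. Both parts of the chromosome had this low share of gains in females: 13 of 29 regions in the distal segment (44.8%) and 19 of 45 in the rest (42.2%). For the sex difference, KO males were listed against KO females at 34 regions (16.4%, against 18% over the table), 19 of them higher in KO males (55.9%, against 50.4% over the table). Control males and control females differed at 93 regions (44.9%, against 38.4% over the table), and 36 were higher in control males (38.7%, against 47.3% over the table).

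**Figure D1:**
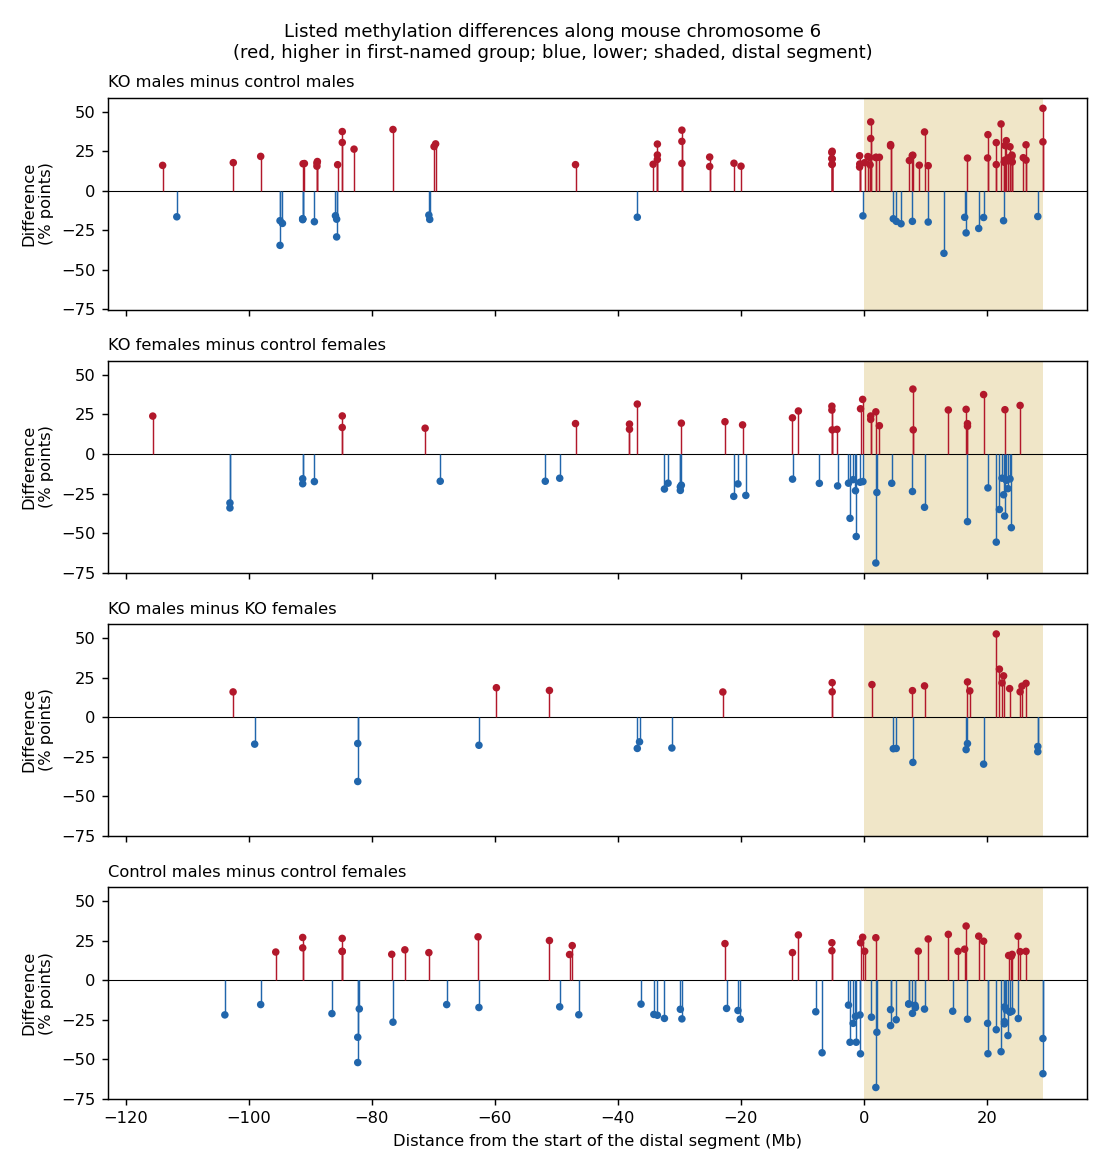
Listed methylation differences along chromosome 6 in the 4 comparisons, in percentage points (vertical axis), against the distance in Mb from the start of the distal segment (horizontal axis). Each stem is 1 region of 100 bp, red where the first-named group was higher and blue where it was lower, and the shaded band is the distal segment, which holds 88 of the 207 regions.

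Listed regions were packed more densely in the distal segment, and their differences were larger. The segment held 3.02 regions per Mb over 29.1 Mb, against 1.03 per Mb in the rest of the chromosome, and the median distance from a region to the next was 147.1 kb in the segment and 369.4 kb in the rest. How many windows were assayed in each part is unknown, so these densities are not shares of assayed windows. The longest stretch with no listed region lay outside the segment, in the longer part (115.6 Mb), between 73673801 and 81915701. In the distal segment 36 of 88 regions (40.9%) had at least 1 difference of 25 points or more, compared with 33 of 119 (27.7%) in the rest and 27.3% of the regions on all other chromosomes. Differences of 40 points or more were found at 9 distal regions (10.2%), at 5 regions of the rest (4.2%) and at 3.45% of regions on other chromosomes. The median size of the change in KO females was 25.8 points in the segment (interquartile range 19.2 to 35.1), against 19.5 points in the rest (17.4 to 26.2) and 21.04 points on other chromosomes. The corresponding medians in KO males were 21.1, 18.02 and 20.3 points.

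A distal region was more often listed in several comparisons at once than a region in the rest of the chromosome. In the segment 5 regions were listed in all 4 comparisons and 8 in 3, together with 26 in 2 and 49 in a single comparison. In the rest of the chromosome no region was listed in all 4, 4 were listed in 3, 31 in 2 and 84 in a single comparison. Regions listed in all 4 made up 5.68% of the segment and 1.79% of the regions on other chromosomes together, but 5.52% on chromosome 18 and 3.8% on chromosome 11.

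At 10 of the 88 distal regions, KO and control mice differed in opposite directions in males and females. Genotype cannot be told apart from title code in these comparisons, and strain background, mixed in these mice, was not tested. Of 14 distal regions listed in both KO comparisons, 10 changed in opposite directions (71.4%), against 1 of 9 in the rest of chromosome 6 (11.1%), 67 of 362 on all other chromosomes (18.5%) and 20.3% over the whole table. The KO comparisons of males and of females have no library in common, but they share title codes. Code G130 was found in KO males and control females, G129 in both control sexes and G131 in both KO sexes. Whether code bears on the opposite directions was not tested. At 8 of the 10 regions KO males exceeded control males while KO females lay below control females, and at the other 2 the reverse held. The 10 regions spread over 13.9 Mb, from 129885001 to 143781801. Among the 34 regions listed in that span, a single region (142960501 to 142960601) had the same direction of change in both sexes.

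The first 4 of these regions alternated in direction. At 129885001 to 129885101 KO males differed from control males by 37.3 points, and KO females from control females by -33.7 points, in the authors' deposited table. At 136647801 to 136647901 the signs were turned round, with -26.55 points in KO males and 28.3 points in KO females in the authors' deposited table. The third, 136872301 to 136872401, again was higher in KO males (20.8 points) and lower in KO females (-42.8 points) in the authors' deposited table. At 139493101 to 139493201 KO males had -16.8 points and KO females 37.6 points in the authors' deposited table. These 4 regions and 141549001 to 141549101, with 30.5 points in KO males and -55.75 points in KO females in the authors' deposited table, were the 5 that were listed in all 4 comparisons. The last of them had the widest gap between the sexes among these regions, since the male and female changes lay 86.3 points apart.

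Past 140 Mb the direction was uniform. All 6 opposite regions there gained methylation in KO males and lost it in KO females. Beside 141549001 they were 140195301 to 140195401 (35.6 points in KO males and -21.4 points in KO females in the authors' deposited table), 142911601 to 142911701 (19.4 and -39.2 points in the same order) and 143181401 to 143181501 (31.8 and -16.6 points). The last of the 6 were 143448401 to 143448501 and 143781701 to 143781801, for which the authors' deposited table gives 20.8 and 27.9 points in KO males and -21.9 and -15.7 points in KO females. Over the 10 distal regions the median size of the change was 27.2 points in males and 31 points in females. All 10 had a listed control sex difference (males minus females), each with the sign opposite to the male KO change. It was -16.9 points at 142911601, -18.85 points at 143181401, -35.0 points at 143448401 and -20.2 points at 143781701. In the segment as a whole, 50% of regions had a listed control sex difference. That difference shares its control mice with both KO changes, so these signs are not independent.

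**Figure D2:**
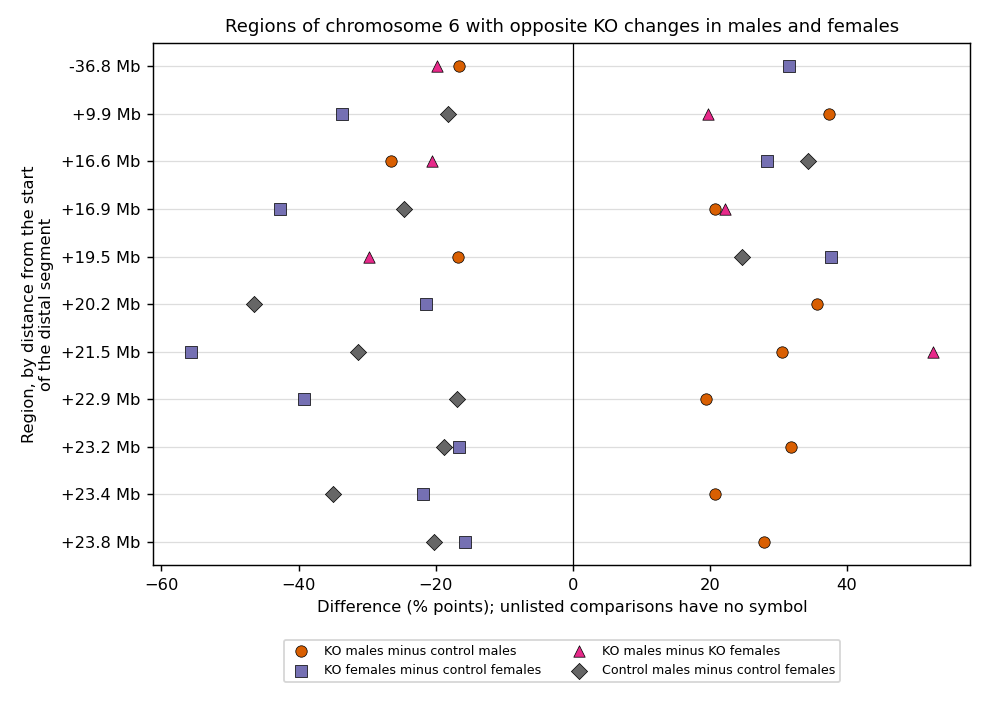
Differences in percentage points (horizontal axis) at the 11 regions of chromosome 6 with opposite KO changes, ordered by distance from the start of the distal segment (vertical axis). Circles are KO males minus control males, squares KO females minus control females, triangles KO males minus KO females and diamonds control males minus control females. In 8 of the 10 distal regions the circles lie to the right of 0 and the squares to the left.

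Outside the segment the opposite pattern was found at 1 region, 83185501 to 83185601. Against the controls of their sex, KO males had -16.6 points and KO females 31.6 points there in the authors' deposited table, and the KO sex difference was -19.8 points.

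Regions with the same change in both sexes lay mostly outside the span of the opposite ones. In the distal segment 4 regions gained methylation in both sexes and none lost it in both. The neighbouring regions 121137301 to 121137401 and 121137401 to 121137501 gained 33.1 and 43.65 points in KO males and 21.9 and 24.0 points in KO females in the authors' deposited table. The other two were 122545901 to 122546001 (21.3 points in KO males and 17.9 points in KO females in the authors' deposited table) and 142960501 to 142960601 (28.7 and 28.0 points), which lies close to 142911601, a region with opposite changes. In the rest of the chromosome 4 regions gained and 4 lost methylation in both sexes. The largest shared gain there was at 35219001 to 35219101 (37.55 points in KO males and 24.1 points in KO females in the authors' deposited table). All 4 shared losses were small: the touching regions 28782801 to 28782901 and 28782901 to 28783001 had -17.8 and -18.2 points in KO males and -15.65 and -18.8 points in KO females, and 30682801 to 30682901 had -19.5 and -17.4 points in the authors' deposited table. The other was 119868901, just outside the segment.

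**Figure D3:**
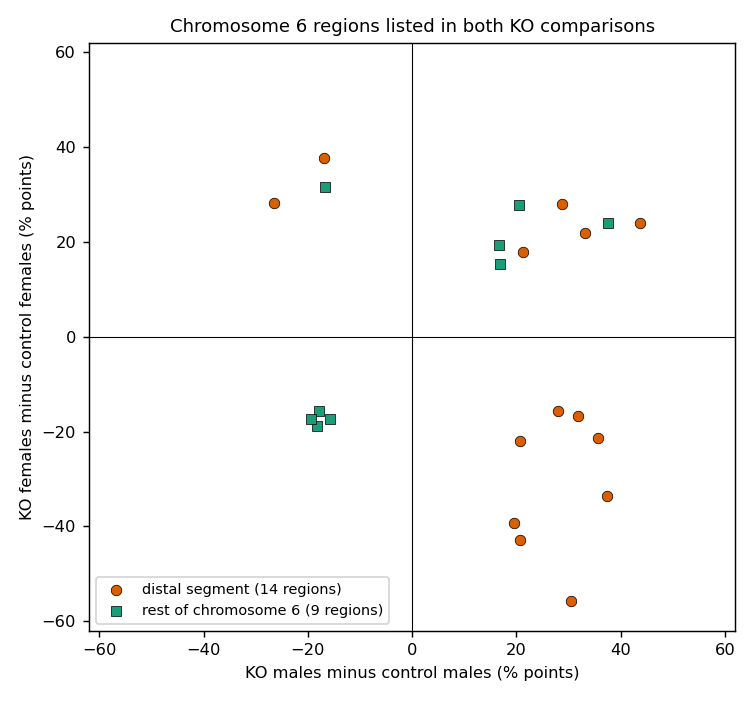
Change in KO females against control females (vertical axis) and in KO males against control males (horizontal axis), in percentage points, at the chromosome 6 regions listed in both comparisons. Circles are the 14 regions of the distal segment and squares the 9 regions of the rest; 8 circles and no square lie at the lower right, where KO males were above and KO females below their controls.

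Where a distal region was listed in both sex comparisons, the direction was the same in some cases and turned round in others. Of 9 distal regions listed both between KO males and KO females and between control males and control females, 3 had the same direction in both (33.3%, against 47.5% over the whole table) and 6 the opposite one. The opposite direction was also common on other chromosomes, with 90 of 171 regions in all (52.6%), among them 12 of 14 on chromosome 18, 12 of 15 on chromosome 4 and 16 of 25 on chromosome 11, so that 6 of 9 is no result particular to the segment. In the rest of chromosome 6 there were 3 such regions, all in the same direction. At 141549001 the sex difference (males minus females) was 52.6 points in KO mice and -31.3 points in controls in the authors' deposited table. At 136872301 it was 22.25 points in KO mice and -24.65 points in controls, and at 129885001 it was 19.7 and -18.3 points in the authors' deposited table. The regions 139493101 (-29.75 points in KO mice and 24.7 points in controls) and 136647801 (-20.6 and 34.25 points) were reversed the other way in the authors' deposited table. These 5 regions are those listed in all 4 comparisons, and opposite KO changes of over 15 points each set the KO and control sex differences far apart by arithmetic, so both counts describe the same regions. The sixth reversed region, 127925301 to 127925401, was listed with 16.7 points in KO mice and -20.98 points in controls, and with -23.7 points for KO against control females, while KO males were not listed against control males in the authors' deposited table.

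The sex difference kept its direction at 125280001 to 125280101 (-19.8 points in KO mice and -25.0 points in controls), 145427301 to 145427401 (16 and 18.1 points) and 146387601 to 146387701 (21.35 and 18.2 points) in the distal part of the authors' deposited table. Outside the segment the sex difference persisted most strongly at the touching regions 37734701 to 37734801 and 37734801 to 37734901, with -16.7 and -40.7 points in KO mice and -36.1 and -52.1 points in controls in the authors' deposited table. Neither was listed in a KO comparison. The third region was 68899101 to 68899201, with 16.9 points in KO mice and 25.1 points in controls in the authors' deposited table.

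Read along the segment in steps of 10 Mb, the direction of the listed differences turned between stretches. From 120 to 130 Mb, with 38 regions, KO males were higher than control males at 16 regions and lower at 4, KO females were above control females at 6 and below them at 5, and control males were higher than control females at 3 and lower at 12. From 130 to 140 Mb, with 15 regions, the balance was turned round in males and between the control sexes: KO males were higher at 2 and lower at 6, KO females were higher at 5 and lower at 1, and control males were higher than control females at 7 and lower at 2. From 140 Mb to the last region, with 35 regions, KO males were higher at 21 and lower at 2, KO females were higher at 2 and lower at 10, KO males exceeded KO females at 8 and were below them at 2, and control males were higher than control females at 6 and lower at 14. The stretch just before the segment, from 110 to 120 Mb, held 26 regions, at which KO males were higher at 9 and lower at 1 and KO females were higher at 6 and lower at 9. It had 3 regions listed in both KO comparisons, and all 3 changed the same way.

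Several distal regions not listed for KO males against control males had a KO female change and a KO sex difference of opposite signs. At 142059701 to 142059801 the authors' deposited table has -35.1 points for the change in KO females and 30.3 points for the KO sex difference (males minus females). The regions 142486101 to 142486201 (-15.3 and 21.6 points in the same order) and 142739201 to 142739301 (-25.8 and 26.1 points) had the same signs in the authors' deposited table. At 127995501 to 127995601 KO females were 41.1 points above control females, the largest gain in females on the chromosome, and the KO sex difference was -28.65 points in the authors' deposited table. At 136868301 to 136868401 these values were 19.2 and -16.7 points in the authors' deposited table. These comparisons share the KO females, so a high or low level in that group alone gives such a pair of values. With no male change listed, none of these regions can be counted as opposite in the sexes. At 145427301, also not listed for KO males against control males, both values were positive (30.7 and 16 points) in the authors' deposited table.

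At regions on both sides of the boundary, and elsewhere on the chromosome, the listed values set control females against both groups compared with them. At 121969701 to 121969801 KO females differed from control females by -68.9 points and control males by -67.9 points in the authors' deposited table. No other listed difference of chromosome 6 was as large. Closely downstream, at 121969901 to 121970001, the same columns of the authors' deposited table hold 26.7 and 26.9 points, so that the direction was turned round with a single 100-bp window between. Values of like size in both columns were also listed at 117770401 to 117770501 (-40.7 and -39.25 points), 118661001 to 118661101 (-23.2 and -22.9 points), 118779801 to 118779901 (-52.2 and -39.2 points), 119825401 to 119825501 (34.55 and 27.15 points) and 122139001 to 122139101 (-24.3 and -32.9 points) in the authors' deposited table. Such pairs of values were not limited to this stretch. Farther out in the rest of the chromosome they were listed at 35208601 to 35208701 (16.8 and 18.2 points), 70570301 to 70570401 (-15.3 and -16.9 points), 87597601 to 87597701 (-22.2 and -24.2 points), 97440401 to 97440501 (20.4 and 23.1 points), 99553301 to 99553401 (-18.9 and -19.2 points) and 109377701 (27.2 and 28.6 points), and farther into the segment at 133752601 (27.9 and 29.0 points), in the authors' deposited table. None of the regions named here was listed for KO males against control males or against KO females. Both columns use the same 5 control females, so the agreement of their values is not independent.

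Control males were likewise set against both groups compared with them at regions near the end of the chromosome and at others far from it. At 149138201 to 149138301, the last region but one, KO males were 52.25 points above control males in the authors' deposited table, a larger gain than at any other region of the chromosome, and the control sex difference (males minus females) was -59.15 points. The touching region 149138301 to 149138401 had 31.0 and -36.9 points in the authors' deposited table. At 142328401 to 142328501 the authors' deposited table gives 42.35 and -45.2 points. The touching regions 142878101 to 142878201 and 142878201 to 142878301 had 18.1 and 18.4 points for the change in KO males and -26.2 and -27.6 points for the control sex difference in the authors' deposited table. Far outside the segment the same signs were listed at 43463901 (38.85 and -26.55 points), 90436301 (38.4 and -24.5 points), 86451101 to 86451201 (22.7 and -22.2 points) and 21954101 to 21954201 (21.85 and -15.4 points) in the authors' deposited table. At 146387601, near the end, the signs went against this, with 19.5 points for the change in KO males and 18.2 points for the control sex difference in the authors' deposited table. Control males lay above both groups at 130481501 (-19.7 and 26.1 points), 138696101 (-23.7 and 27.85 points) and 49295801 (-15.3 and 17.4 points) in the authors' deposited table. None of the regions named here was listed for KO against control females. These columns share the 6 control males.

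The segment held between 3 and 4 of the 5 largest differences in each direction of each comparison. It also held 145 of the 303 listed differences of the chromosome, so 3 of 5 lies near its share of all listed values. For KO males against control males the segment also held the largest loss, at 133042401 to 133042501 (-39.5 points in the authors' deposited table), a region listed in no other comparison. The largest differences outside the segment in that comparison were gains at 43463901 to 43464001 (38.85 points) and 90436301 to 90436401 (38.4 points) and losses at 25098301 to 25098401 (-34.4 points) and 34304001 to 34304101 (-29.1 points) in the authors' deposited table. In KO females the regions 143998601 to 143998701 (-46.6 points) and 118779801 (-52.2 points) were among the 5 largest losses, and 145427301 (30.7 points) and 119825401 (34.55 points) among the 5 largest gains. These values are from the authors' deposited table. Control males were highest above control females at 136647801 (34.25 points), 133752601 to 133752701 (29.0 points) and 109377701 to 109377801 (28.6 points) and, besides the regions already named, far below them at 119474401 to 119474501 (-46.55 points) and 140195301 (-46.5 points) in the authors' deposited table.

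Neighbouring windows moved together. In the distal segment 10 pairs of regions touched each other, and in all 13 cases in which both regions of a pair were listed in the same comparison they had the same direction. In the rest of the chromosome this held in 20 of 21 cases, and on all other chromosomes in 437 of 444. The exception on chromosome 6 was the pair 90347201 to 90347301 and 90347301 to 90347401, with 19.5 and -19.7 points for KO against control females in the authors' deposited table. With neighbours within 10 kb joined, the segment had 69 units, 2 of them with 3 regions, and the rest had 93 units, 5 of them with 3 or more. The longest run, of 5 regions, lay at 35208501 to 35219101. Its mean gain of 34.1 points in KO males rests on 35218501 and 35219001 alone (30.6 and 37.55 points), as its other regions were not listed for KO males against control males. The distal runs were 124360501 to 124368001 and 136868301 to 136872401. In the first, the mean of 28.9 points in KO males rests on 124367801 and 124367901, and 124360501 was not listed for KO males against control males. In the second, KO females exceeded control females at 136868301 and at 136868401 to 136868501 (19.2 and 17.6 points) and lay below them at 136872301 (-42.8 points) in the authors' deposited table.

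Opposite KO changes gathered near the end of a few other chromosomes as well, so they are not particular to chromosome 6. In a window of the same 29.1 Mb before the last listed region, 11 of 12 regions listed in both KO comparisons were opposite on chromosome 18, and 7 of 10 on chromosome 4, compared with the 10 of 14 on chromosome 6. Chromosome 8 had 6 of 15 in the end window and 0 of 5 in the rest, and chromosome 9 had 3 of 6 and 2 of 10. On chromosome 11, which carries Stat5a and Stat5b, the end window had 2 of 11 and the rest of the chromosome 11 of 26. Over the end windows of the 18 other chromosomes together, 33 of 126 regions were opposite (26.2%), and 9 of those windows had none. The direction was also shared between chromosomes 6 and 18: methylation was gained in KO males and lost in KO females at 8 of the 10 opposite regions in the chromosome 6 window and at 10 of the 11 in the chromosome 18 window. On chromosome 4 this was so at 4 of 7, on chromosome 9 at 2 of 3 and on chromosome 8 at only 2 of 6. Listed regions were denser towards the end on many chromosomes. The ratio of regions per Mb in the end window to the rest was 2.93 on chromosome 6, with a median of 1.39 over the 18 others, of which 2 had a larger ratio and 13 were denser in the end window than in the rest.

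**Figure D4:**
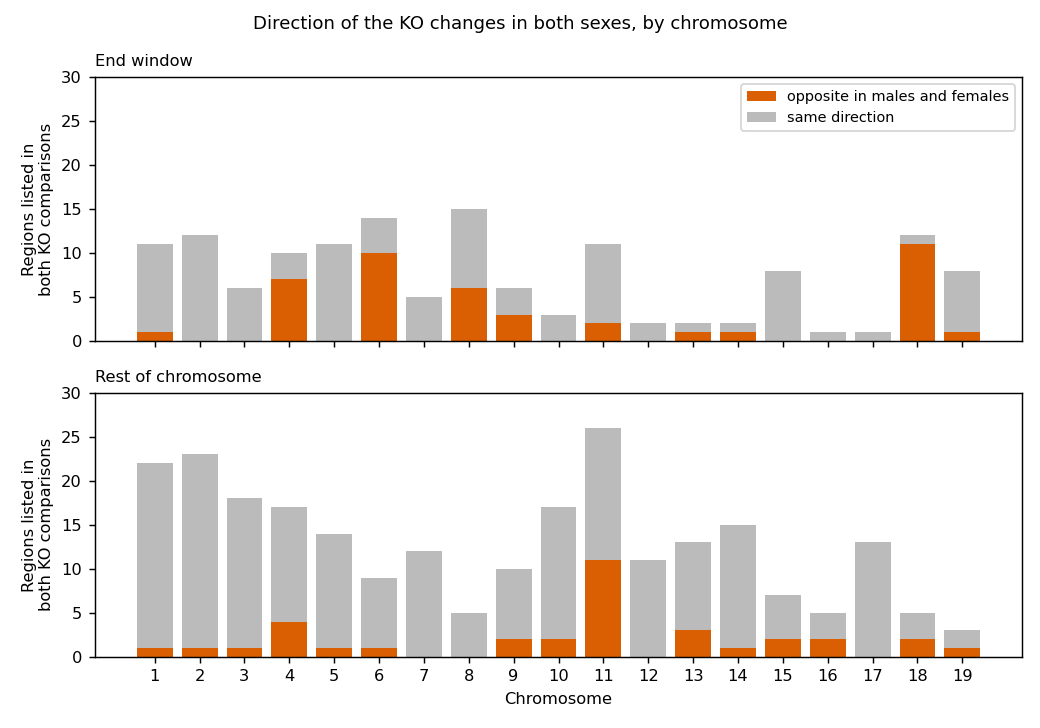
Number of regions listed in both KO comparisons (vertical axis) for each chromosome (horizontal axis), in the last 29.1 Mb before the last listed region (upper panel) and in the rest of the chromosome (lower panel). Orange bars are regions with opposite changes in males and females and grey bars those with the same direction. The end windows of chromosomes 4, 6 and 18 are mostly orange, with 7 of 10, 10 of 14 and 11 of 12 regions.

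With 1 level per group at a region, adding the male KO change to the control sex difference and taking off the female KO change gives the KO sex difference. Of the 5 distal regions listed in all 4 comparisons, 136647801 and 139493101 met this exactly, and 141549001 was off by 2.39 points. At 136872301 the values missed by 16.6 points and at 129885001 by 33.0 points, where the other 3 columns would give a KO sex difference of 52.7 points and the authors' deposited table gives 19.7 points. Of the 8 distal regions listed in 3 comparisons, 5 would have a difference above 15 points in the fourth by this sum, although it was not listed. At 142911601, for example, the 3 listed values give a KO sex difference of 41.75 points. For the opposite regions 140195301 and 143448401 the sum gives 10.5 and 7.66 points, under the listing threshold. An unlisted comparison is therefore not a measured small difference.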

How the data were processed

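RRBS was done on 23 liver libraries. The submitters' processing notes name mm9 as build and list methylKit, Bismark and Trim Galore 0.4.3 as tools. How animals entered the test, and any minimum of coverage, is not stated in the sources used here. The authors deposited 1 table of 3885 regions of 100 bp with 4 columns of differences in percent methylation (percentage points). Per the file legend, differences over 15 points at a q-value under 0.05 were listed. The non-knockout groups, written WT in the table, were taken to be the floxed controls.

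Regions on chromosome 6 were selected and split at 120 Mb. Counts, shares and medians were computed with Python 3.11.15 and pandas 2.3.3, and the counting steps were checked on simulated data. No test was run: the columns that chose the regions are those described, regions are not replicates, and depth and per-animal values are unknown. Regions were named by position: the opposite KO changes, those in all 4 comparisons, the 5 largest per direction and comparison, the largest shared changes, and runs within 10 kb. Others named were chosen after their values were seen. The members, boundary and rules were chosen with earlier results of these data known. Alternatives were differences of at least 25 points, merged neighbours, boundaries moved by 5 and 10 Mb to either side, and leaving out regions listed in all 4 comparisons.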

Additional observations from a re-analysis of the deposited data

How the results depend on the processing

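Of 133 values computed for 22 shares, medians and densities under other settings, all but 5 stayed within set limits of the reported value. The limits were 95% exact binomial limits for shares, nominal 95% limits by rank for medians and a factor of 1.5 for densities. They are wide at these counts and treat regions as independent, which they are not. The settings also reuse most of the same regions, so staying within the limits is no test of stability. The share of opposite KO changes in the distal segment was 90.9% (10 of 11) and 90% (9 of 10) with the boundary moved 5 and 10 Mb towards the end. It was 66.7% (10 of 15) and 58.8% (10 of 17) with the boundary moved 5 and 10 Mb the other way. Without the regions listed in all 4 comparisons it was 55.6% (5 of 9). With differences of at least 25 points, the share higher in KO males against control males was 87.5% in the segment and 83.3% in the rest. Under that minimum the share keeping the sex difference was 0% of 1 region in the segment, and the share higher in KO males against KO females was 0% of 1 region in the rest. Without the regions listed in all 4 comparisons, 75% (3 of 4) of the distal regions kept the sex difference, as that setting takes out 5 reversed regions. The rest of the chromosome gave no value for opposite KO changes at 25 points, since no region there was listed in both. No paired analysis was possible because the deposited differences are between whole groups, and leaving out single animals was not run for that reason.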
